A study of Homo sapiens with 8 samples.

Results

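The 8 keratin genes KRT5, KRT14, KRT15, KRT17, KRT6A, KRT6B, KRT6C and KRT16 were followed by RNA-seq across the MCF10A progression series, a set of 4 related human mammary epithelial cell lines called M1, M2, M3 and M4. The 8 genes were taken by name as the basal keratins (KRT5, KRT14, KRT15 and KRT17) and the activated keratins (KRT6A, KRT6B, KRT6C and KRT16), out of 56632 genes in the count table, and all 8 were among the 18431 genes with enough counts to be tested. M1 is MCF10A, a spontaneously immortalized line that forms no tumours. M2 (MCF10AT1k.cl2) carries an introduced oncogenic HRAS allele, T24-HRAS, and was passaged in mice as a xenograft. M3 (MCF10Ca1h) and M4 (MCF10CA1a.cl1) were each established from a tumour that M2 cells had formed in mice, so that M2, M3 and M4 share the HRAS transfection. Of the tumour-forming lines, M4 gives the less differentiated tumours and M3 those of lower grade. Each line was grown as 3D acini in Matrigel for 8 days, with 2% horse serum, hydrocortisone, cholera toxin and insulin. The medium of M1 and M2 held 10 ng/ml EGF and that of M3 and M4 held none, so a difference of M3 or M4 from M1 or M2 cannot be told apart from a difference in EGF. Every stage is 1 line, with 2 libraries that the labels call biological duplicates. The p-values therefore measure the spread between the libraries of each line, pooled over the lines, and not a spread between separate lines of a stage.

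Keratins are the intermediate filament proteins of epithelial cells. A filament is built from pairs of 1 type I and 1 type II keratin, and the cells of the basal layer of stratified and glandular epithelia typically pair the type II keratin KRT5 with the type I keratin KRT14, with KRT15 and KRT17 as further type I partners. KRT6A, KRT6B and KRT6C (type II) and KRT16 (type I) are low in resting epidermis and are known for their induction after wounding, in hyperproliferation and in response to EGF receptor ligands and interleukin-1. In the breast, KRT5, KRT14 and KRT17 mark basal and myoepithelial cells and basal-like tumours.

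Total expected counts ran from 69669970 to 107350344 per library, with a median of 84947231, and the 8 keratins together took 1.19% to 1.97% of each library. Levels are given as CPM, counts scaled to the size of each library and by TMM factors, which balance libraries of different composition. A gene was called where the adjusted p of edgeR's quasi-likelihood test was under 0.05 and the log2 fold change was beyond 1 in either direction. The 8 epithelial marker genes summed to 2216 to 7764 CPM per library, and the 6 leukocyte and endothelial markers in the table to 1.20 to 24.9 CPM, most of it from CD14. HRAS was at 154 and 139 CPM in M1 against 160 and 154 in M2, with 269 and 327 in M3 and 335 and 352 in M4, so its level did not separate the transfected line M2 from M1.

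A pair of features of the libraries bear on every comparison with M1 or M2. In an expression table that accompanies the study, the columns named for M1 replicate 2 and M2 replicate 1 each follow the library that the labels give to the other one of that pair. The labels were followed here, and each keratin call that ended with that pair exchanged is given with its value under the exchange. As labelled, the pair of M2 libraries lay closer together than any other pair, with a mean chi-square per gene of 6.65. Sampling noise alone gives about 1, and the other lines gave 111 to 293. The spread behind each p-value is shared by all lines and includes this pair. The p-values may thus be too small as a measure of spread between cultures, most of all for M2. The levels of M2 replicates 1 and 2 differed by 1.00 to 1.03 times for every keratin but KRT6C, which differed by 1.48 times. The pair of M1 libraries differed in differentiation keratins, as described with KRT16.

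KRT6A, KRT6B and KRT6C lie beside each other on chromosome 12 and are near-identical, which limits how well short reads can be assigned to one of them. Their coding sequences have 1692 bases each, of which 42 differ between KRT6A and KRT6B, 35 between KRT6A and KRT6C and 25 between KRT6B and KRT6C. The stretch of 100 coding bases within a single exon in which the 3 genes differ most is shown to make clear what a read can be told apart by; it lies in exon 2 of each gene on the minus strand (GRCh37), at chr12:52885316-52885415 in KRT6A, chr12:52844200-52844299 in KRT6B and chr12:52865860-52865959 in KRT6C. Capitals mark the 10 positions at which the 3 genes are not all the same.
KRT6A: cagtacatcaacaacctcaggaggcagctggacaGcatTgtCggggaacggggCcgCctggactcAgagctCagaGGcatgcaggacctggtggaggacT
KRT6B: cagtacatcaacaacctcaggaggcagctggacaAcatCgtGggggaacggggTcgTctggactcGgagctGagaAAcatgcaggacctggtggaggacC
KRT6C: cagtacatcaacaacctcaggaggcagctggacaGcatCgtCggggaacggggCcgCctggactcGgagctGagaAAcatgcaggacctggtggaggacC

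Over whole transcripts, 18.2% of the 100-base windows of KRT6A, 24.4% of those of KRT6B and 31.4% of those of KRT6C occur letter for letter in another keratin. The same share was 6.05% for KRT14 and 7.12% for KRT16, which share stretches with each other, and 1.64% or less for KRT5, KRT15 and KRT17. Pseudogenes of KRT16 and KRT17 held at most 165 counts each in any library. In the RefSeq promoter table (GRCh38.p14) only KRT5 of the 8 genes has an entry, and its 300 bases were searched on both strands for short motifs. The letters TATAAA of the TATA box did not match, where 11.5% of all 35116 promoters held a match. Neither did the motif of AP-1 (TGANTCA), which 7.71% of promoters held. The motifs of AP-2 (GCCNNNGGC), which 23.2% held, and SP1 (GGGCGG), which 45.0% held, did not match either. Only these letters were searched, with N for any base. The KRT5 sequence holds GATAAA, which differs from TATAAA in its first letter. Whether that stretch serves as a TATA box was not tested.

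**Figure D1:**
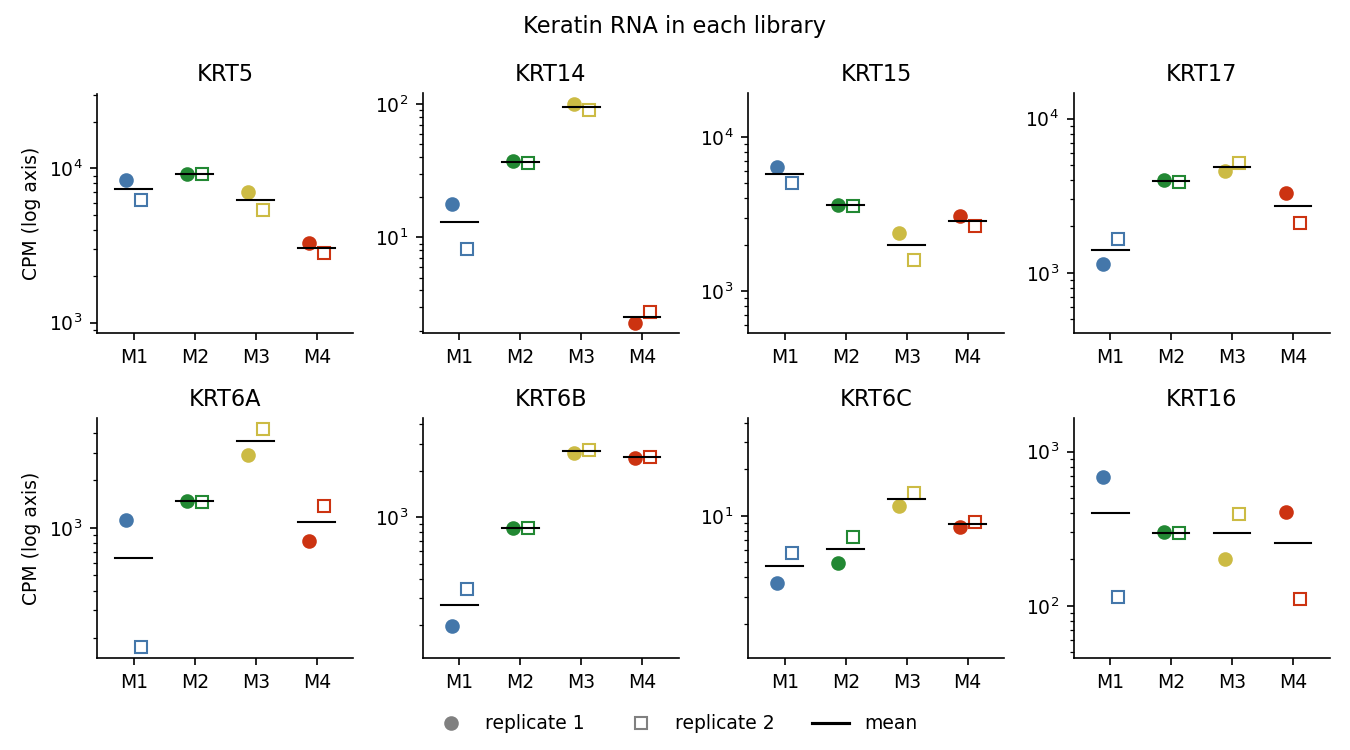
CPM (log axis, with a range of its own in each panel) of the 8 keratins in the 2 libraries of each line, with filled circles for replicate 1, open squares for replicate 2 and a black line for the mean. KRT14 was highest in M3 (99.7 and 91.1 CPM) and lowest in M4 (2.30 and 2.74 CPM), and KRT6B was several times higher in M3 and M4 than in M1.

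KRT5, the type II keratin of basal cells, was the keratin with the largest share of counts in M1, M2 and M3 and was lower in M4. KRT5 (ENSG00000186081, chr12:52908359-52914314, GRCh37) was at 8414 and 6203 CPM for M1, 9179 and 9190 for M2, 7056 and 5365 for M3 and 3268 and 2837 for M4. Both M4 libraries lay below all others, while M3 overlapped with M1. The mean in M4 was 3053 ± 305 CPM (SD, n = 2) against 7309 ± 1563 in M1. KRT5 was lower in M4 than in M1 by a log2 fold change of -1.26 (SE 0.236, adjusted p = 0.00665, edgeR), than in M2 by -1.59 (adjusted p = 0.00418, edgeR), and than in M3 by -1.02 (adjusted p = 0.0255, edgeR). Its differences of M2 and M3 from M1, at 0.33 and -0.23, were not past the threshold. The difference from M3 sat at the fold threshold and was not called under 10 of the 16 alternatives. With the libraries exchanged it was -1.02 and was not called (adjusted p = 0.0994, edgeR). The number of alternatives, here and for the other genes, leaves out the summing of near-identical copies. The difference from M1 was -1.14 without M4 replicate 2 and was not called.

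KRT14, the usual type I partner of KRT5 in basal cells, showed the widest range of the 8 genes across the lines and was scarce in all of them. KRT14 (ENSG00000186847, chr17:39738531-39743147) was at 17.7 and 8.26 CPM in the M1 libraries, 37.3 and 36.3 in those of M2, 99.7 and 91.1 in those of M3 and 2.30 and 2.74 in those of M4. The lines did not overlap, in the order M3, M2, M1 and M4. KRT14 was higher than in M1 in M2, by a log2 fold change of 1.51 (SE 0.313, adjusted p = 0.0383, edgeR), and in M3, by 2.88 (SE 0.328, adjusted p = 0.00159, edgeR), and it was lower in M4, by -2.37 (SE 0.329, adjusted p = 0.00204, edgeR). M3 was above M2 by 1.37 (adjusted p = 0.0455, edgeR), and M4 was below M2 by -3.87 and below M3 by -5.24, a 37.9-fold difference (adjusted p = 0.000948, edgeR). The lower level in M4 was called under all 16 alternatives against M1, M2 and M3, with -1.70 against M1 when M1 replicate 1 was left out. The difference of M3 from M2 was called under 7 of 16 alternatives, where it ran from 1.30 to 2.10. Leaving out any library of M2, M3 or M4 ended the call, as did the exchange of libraries (2.10, adjusted p = 0.167, edgeR). Without M2 replicate 1 or without M2 replicate 2, few tested genes of any kind were called in M3 against M2 or in M2 against M1. The higher level in M2 than in M1 was called under 8 of 16 alternatives, was -0.30 with the libraries exchanged and was 2.16 without M1 replicate 1, and the difference of M3 from M1 was 1.79 with the libraries exchanged (adjusted p = 0.202, edgeR). KRT16, with which KRT14 shares sequence, was at 405 and 110 CPM in M4, where KRT14 was at its lowest.

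KRT15, a type I keratin of basal and progenitor cells, was highest in M1 and lowest in M3. KRT15 (ENSG00000171346, chr17:39669997-39678781) was at 6412 and 5050 CPM in M1 against 3640 and 3584 in M2, with 2380 and 1584 in M3 and 3088 and 2637 in M4. No 2 lines overlapped, in the order M1, M2, M4 and M3. The difference of M3 from M1 was -1.53 (SE 0.248, adjusted p = 0.00573, edgeR), and 15 of 16 alternatives called it; with the libraries exchanged it was -1.34 (adjusted p = 0.135, edgeR). That of M4 from M1 lay at the fold threshold itself (SE 0.244, adjusted p = 0.0182, edgeR), and only 4 of 16 alternatives called it. With the libraries exchanged the difference of M4 from M1 was -0.81 and was not called (adjusted p = 0.205, edgeR). M2 differed from M1 by -0.67 (adjusted p = 0.156, edgeR).

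KRT17, a type I keratin found in basal cells and also induced on activation, was lowest in M1. KRT17 (ENSG00000128422, chr17:39775694-39781094) was at 1140 and 1656 CPM for M1, 4005 and 3914 for M2, 4590 and 5178 for M3 and 3312 and 2117 for M4. Both M1 libraries were below all others, and M3 was highest. KRT17 was higher than in M1 in M2, by 1.50 (SE 0.274, adjusted p = 0.0251, edgeR), and in M3, by 1.80 (SE 0.277, adjusted p = 0.00470, edgeR). In M4 the difference was 0.96 (SE 0.271, adjusted p = 0.0309, edgeR), under the fold threshold, and it was 1.27 without M4 replicate 2 and 0.61 without M4 replicate 1. The M2 call was lost without M1 replicate 1 (1.26), without M2 replicate 1 (1.49), without M2 replicate 2 (1.52) and with the libraries exchanged (0.11). Without an M2 library, and with the exchange, few or no tested genes of any kind were called in M2 against M1. With that exchange the M3 difference was 0.92 (adjusted p = 0.479, edgeR).

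KRT6B, a type II keratin of activated epithelium, showed the largest difference of M3 and M4 from M1. KRT6B (ENSG00000185479, chr12:52840435-52845930) was at 196 and 343 CPM in the M1 libraries, 849 and 849 in those of M2, 2616 and 2732 in those of M3 and 2434 and 2469 in those of M4. M1, M2 and the 2 carcinoma lines lay at 3 separate levels, and M3 and M4 were close to each other. Against M1, KRT6B was higher in M2 by 1.66 (SE 0.259, adjusted p = 0.0150, edgeR), in M3 by 3.31 (SE 0.276, adjusted p = 0.000596, edgeR) and in M4 by 3.19 (SE 0.274, adjusted p = 0.000341, edgeR), which are 3.15-, 9.93- and 9.10-fold differences. Against M2 it was higher in M3 by 1.66 (adjusted p = 0.0135, edgeR) and in M4 by 1.53 (adjusted p = 0.00636, edgeR), and M4 differed from M3 by -0.13 (SE 0.252, adjusted p = 0.764, edgeR). For M3 and M4 as one group against M1 and M2, the difference was 2.42 (SE 0.188, adjusted p = 0.000211, edgeR), called under all 15 alternatives, where it ran from 2.20 to 2.65. With the libraries exchanged the differences of M3 and M4 from M1 were 2.36 (adjusted p = 0.146, edgeR) and 2.23 (adjusted p = 0.0802, edgeR), that of M2 was 0.19, and those of M3 and M4 from M2 were 2.17 and 2.04 and were not called. Without M2 replicate 1 or without M2 replicate 2, KRT6B differed by unmoved values of 1.53 to 1.66 in M2 against M1, M3 against M2 and M4 against M2. These were no longer called, in fits with 1 library of M2 in which the calls of these comparisons fell over all tested genes.

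KRT6A, which is the most abundant KRT6 gene in M2 and M3, followed another pattern and varied widely within M1. KRT6A (ENSG00000205420, chr12:52880960-52887041) was at 1117 and 175 CPM in M1 against 1478 and 1467 in M2, with 2891 and 4219 in M3 and 821 and 1368 in M4. Both M3 libraries lay above all others, and M1 replicate 1 was 6.38 times M1 replicate 2. Its difference of M3 from M1 was 2.46 (SE 0.755, adjusted p = 0.0571, edgeR) and was not called, nor was any other comparison of KRT6A. Without M1 replicate 1 the difference of M3 from M1 was 4.35 and that of M4 from M1 2.66, both called, and without M1 replicate 2 they were 1.67, called, and -0.03.

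The ratio of KRT6A to KRT6B, a measure chosen after its values were seen, was 5.71 and 0.510 for M1, 1.74 and 1.73 for M2, 1.11 and 1.54 for M3 and 0.337 and 0.554 for M4. KRT6A thus exceeded KRT6B in both libraries of M2 and M3 and in M1 replicate 1, and KRT6B exceeded KRT6A in M4 and M1 replicate 2. KRT6A, KRT6B and KRT6C were also summed as 1 gene, so that reads need not be told apart. The summed difference from M1 was 1.34 in M2 (adjusted p = 0.0935, edgeR), 2.76 in M3 (adjusted p = 0.00405, edgeR) and 1.95 in M4 (adjusted p = 0.00886, edgeR). From M2 it was 1.42 in M3 (adjusted p = 0.0787, edgeR) and 0.61 in M4 (adjusted p = 0.285, edgeR), neither of them called. M4 differed from M3 by -0.81 in the sum (adjusted p = 0.181, edgeR). For M3 and M4 as one group against M1 and M2, the summed difference was 1.69 (adjusted p = 0.00408, edgeR).

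KRT6C was the least abundant activated keratin, at 304 to 1218 counts per library. KRT6C (ENSG00000170465, chr12:52862300-52867589) was at 3.67 and 5.75 CPM in the M1 libraries, 4.93 and 7.31 in those of M2, 11.7 and 14.0 in those of M3 and 8.42 and 9.17 in those of M4. M1 and M2 overlapped, and M4 and M3 lay above them. It was higher in M3 than in M1 by 1.44 (SE 0.302, adjusted p = 0.0147, edgeR). The call was lost without M1 replicate 1 (1.16, adjusted p = 0.0569, edgeR), without M3 replicate 2 (1.31, adjusted p = 0.0605, edgeR) and with the libraries exchanged (1.57, adjusted p = 0.0563, edgeR). KRT6C shares more of its sequence with the far more abundant KRT6A and KRT6B than any other member does, and its values are uncertain.

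KRT16, the type I partner of the KRT6 keratins, was not called in any comparison. KRT16 (ENSG00000186832, chr17:39766030-39772151) was at 684 and 114 CPM in M1 against 303 and 295 in M2, with 201 and 395 in M3 and 405 and 110 in M4. The lines overlapped throughout, and replicates differed by 6.03 times in M1, 1.96 times in M3 and 3.67 times in M4. The differences from M1 were -0.41 in M2, -0.42 in M3 and -0.63 in M4, each with an SE of 0.85, so that differences of the size seen for KRT6B in M2 were not detectable for KRT16. Without M1 replicate 1 the same differences were 1.40, 1.40 and 1.20.

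M1 replicate 1, which held the highest KRT16 and the higher KRT6A of the M1 pair, also held most of the RNA of suprabasal and mucosal keratins, the keratins of differentiating layers. The 12 genes of that list summed to 982 CPM in M1 replicate 1, 105 in M1 replicate 2, 48.5 and 48.1 for M2, 22.7 and 20.4 for M3, and 76.5 and 51.5 for M4. KRT10, a type I keratin of suprabasal epidermis, was at 836 CPM in M1 replicate 1 and 96.9 in M1 replicate 2. KRT1, its type II partner, was at 70.8 and 0.378 CPM, and KRT4 and KRT13, the mucosal pair, were at 35.5 and 30.6 CPM in replicate 1 and at 0 and 2.56 in replicate 2. The part of this difference between the M1 cultures in the M1 values of KRT6A and KRT16 was not tested. In RNA of whole cultures, fewer cells of a type and less RNA per cell cannot be told apart.

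**Figure D2:**
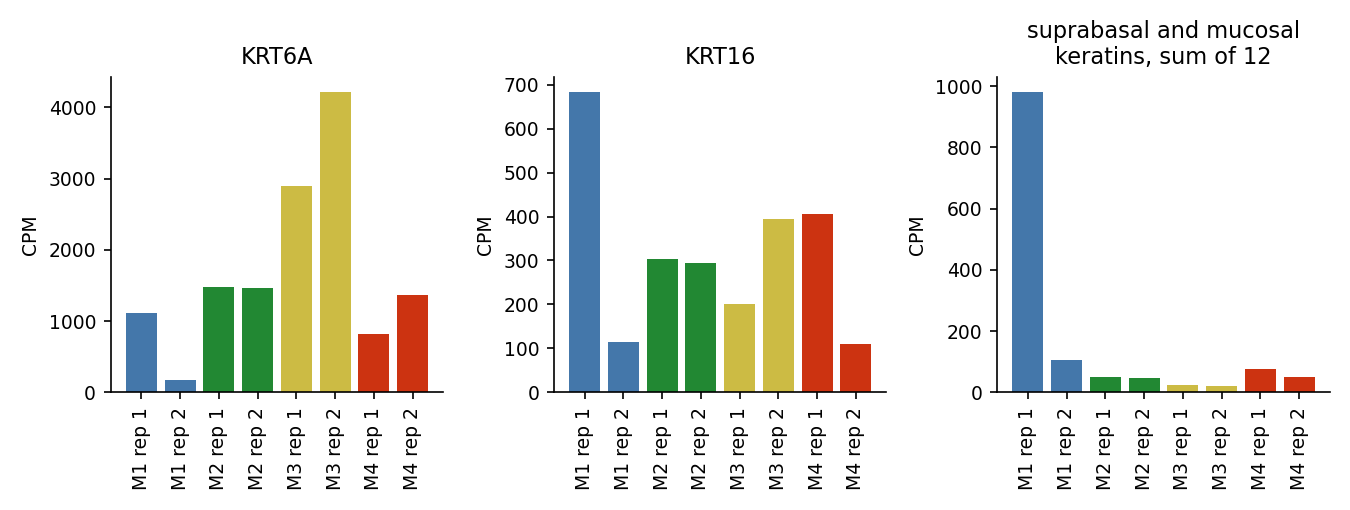
CPM (linear axes from 0) of KRT6A, of KRT16 and of the sum of 12 suprabasal and mucosal keratins in each of the 8 libraries, 1 bar per library and 1 colour per line. M1 replicate 1 stood above M1 replicate 2 in all 3 panels, by 1117 against 175 CPM, 684 against 114 CPM and 982 against 105 CPM.

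Counted over the 8 genes, 3 were higher and 0 lower in M2 than in M1 (KRT14, KRT17 and KRT6B), where 2.26% of all tested genes were called higher and 1.11% lower. In M3 against M1, 4 were higher (KRT14, KRT17, KRT6B and KRT6C) and 1 lower (KRT15), against 8.02% and 5.51% of all tested genes. In M4 against M1, 1 was higher (KRT6B) and 3 were lower (KRT5, KRT14 and KRT15), against 9.48% and 11.2%. In M3 against M2, 2 were higher (KRT14 and KRT6B) and 0 lower, against 2.95% and 1.20%. In M4 against M2, 1 was higher (KRT6B) and 2 were lower (KRT5 and KRT14), against 6.98% and 6.94%, and in M4 against M3, 0 were higher and 2 lower (KRT5 and KRT14), against 3.99% and 6.30%. With M3 and M4 together against M1 and M2, 1 was higher (KRT6B) and 0 lower, against 7.08% and 6.68%. These comparisons share libraries and are not independent of each other.

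The median log2 fold change of the 8 genes was 0.78 in M2, 1.62 in M3 and 0.07 in M4 against M1, where the median of all tested genes was -0.04, -0.02 and -0.02. By group, 3 of the 4 basal keratins were lower in M4 than in M1 and 1 of the 4 activated keratins was higher. In M3, 2 basal keratins were higher and 1 was lower than in M1, and 2 activated keratins were higher.

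**Figure D3:**
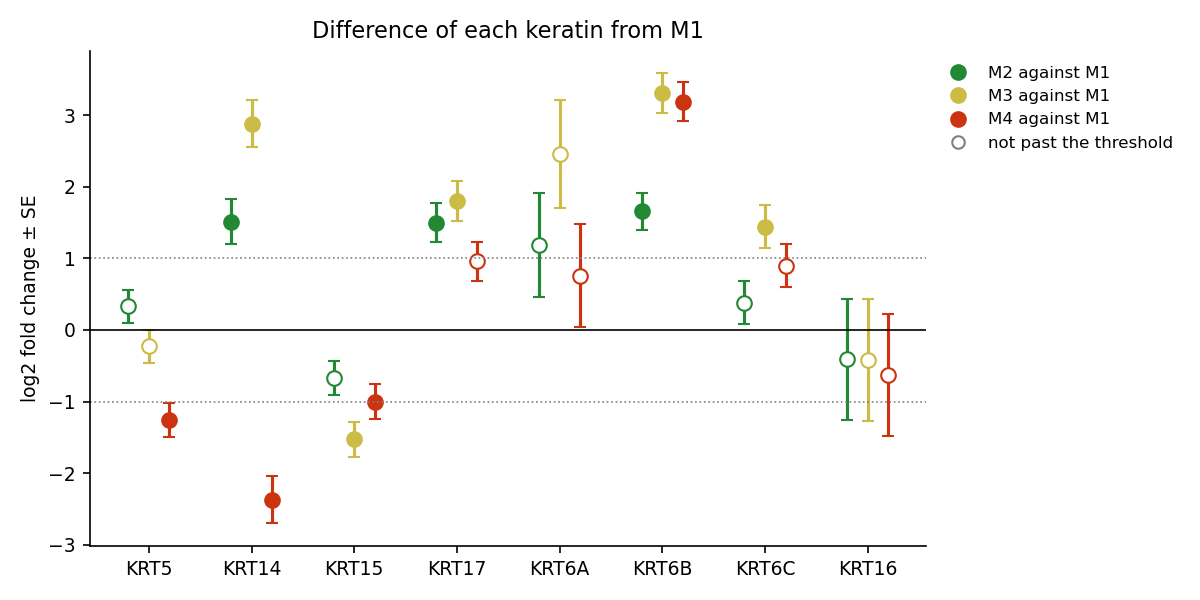
log2 fold change from M1 of each keratin in M2, M3 and M4, with bars of 1 SE from the edgeR fit, filled points for called differences, open points for the rest and dotted lines at the fold threshold of 1. KRT6B stood highest in M3 (3.31) and M4 (3.19), KRT14 was on opposite sides of 0 in M3 (2.88) and M4 (-2.37), and KRT16 had the widest bars.

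Levels of different genes were compared per kilobase of their canonical transcript. On this scale KRT5 and KRT15 were the most abundant of the 8 in M1, at 3266 and 3347 CPM per kb on average, followed by KRT17 at 922, and KRT14 was at 7.93. In M3 KRT17 was highest, at 3220 CPM per kb, with KRT5 at 2775, KRT6A at 1540 and KRT6B at 1162. In M4 KRT17, KRT15, KRT5 and KRT6B lay between 1065 and 1789 CPM per kb, and KRT14 was at 1.54. Per kilobase, KRT5 RNA exceeded the RNA of KRT14 by 348 and 549 times for M1, 180 and 185 times for M2, 51.7 and 43.1 times for M3 and 1038 and 757 times for M4. The mean level of KRT15 was above that of KRT5 in M1 and M4, at 1672 against 1364 CPM per kb in M4, and that of KRT17 was above it in M3 and M4. In M2 KRT5 was highest, at 4104 CPM per kb, with KRT17 at 2610 and KRT15 at 2110. KRT15 took 40.5% and 41.5% of the summed per-length level of the 8 keratins in M1, where M2 stood at 21.1% and 21.0%, M3 at 13.7% and 9.21%, and M4 at 25.4% and 25.9%. KRT6B took 0.918% and 2.09% in M1 and 14.9% and 18.0% in M4.

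**Figure D4:**
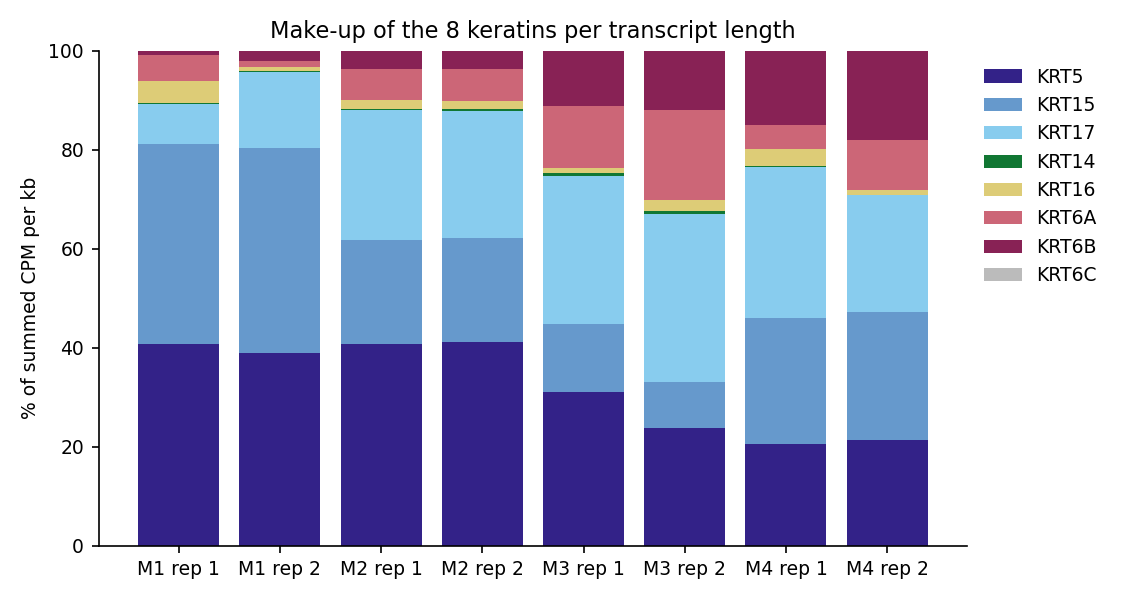
Share (%) of each keratin in the summed CPM per kb of the 8 keratins, 1 stacked bar per library. KRT5 took 40.7% and 39.0% of the bar in M1 and 20.5% and 21.3% in M4, KRT6B and KRT6A took more of the bar in M3 than in M1, and KRT14 (0.0198% to 0.601%) and KRT6C are too small to see.

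The summed CPM of the 4 activated keratins over that of the 4 basal keratins was, on the log2 scale, -3.00 and -4.34 in the M1 libraries, -2.68 and -2.68 in those of M2, -1.30 and -0.73 in those of M3 and -1.40 and -0.94 in those of M4. All 4 libraries of M3 and M4 lay above all 4 of M1 and M2, and the means differed by 2.08, with a pooled SD within lines of 0.54. The same ratio of type I to type II keratins was -0.24 and 0.02 in M1 against -0.53 and -0.56 in M2, with -0.79 and -0.77 in M3 and 0.06 and -0.46 in M4. Here the means of M3 and M4 and of M1 and M2 differed by -0.16, within the pooled SD of 0.20, and the libraries overlapped. Both ratios used CPM and not CPM per kb. The canonical type II transcripts have 2238 to 2309 bases and the type I transcripts 1517 to 1712. The sign of the type I to type II ratio thus does not show which type had more transcripts. With levels per kb, both differences between the means kept their direction. No test is given for these sums, since the genes in them were chosen with earlier results of these data known.

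Other keratins differed between the lines as well. Against M1, 2.26% of all tested genes were called higher and 1.11% lower in M2. In M3 these shares were 8.02% and 5.51%, and in M4 9.48% and 11.2%. Of the 5 tested keratins of simple epithelia, 3 were higher in M4 than in M1: KRT18 by 2.00 (adjusted p = 0.000869, edgeR), KRT7 by 1.52 (adjusted p = 0.0174, edgeR) and KRT8 by 1.27 (adjusted p = 0.00796, edgeR). KRT23 was lower by -4.18 (adjusted p = 0.00139, edgeR). In M3, 1 was higher (KRT18) and 1 lower (KRT23), and in M2, 0 were higher and 1 was lower (KRT23). The M2 call of KRT23 ended with the libraries exchanged, where 0 tested genes were called in M2 against M1. KRT7, a type II keratin of simple epithelia, was at 1669 and 835 CPM in M1 and 4335 and 2851 in M4, and both M4 libraries lay above both M1 libraries. Of 6 tested suprabasal and mucosal keratins, 3 were lower in M3 and in M4 than in M1 (KRT1, KRT13 and KRT10), with M1 means that rest on M1 replicate 1, and 2 were higher in M4: KRT80 by 2.97 (adjusted p = 0.000955, edgeR) and KRT9 by 2.32 (adjusted p = 0.0109, edgeR).

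Genes of the pathways known to regulate the activated keratins were examined as 2 lists. The first held 8 tested genes, namely ligands of the EGF receptor, interleukin-1 genes and the receptor itself. Of these, 2 were higher in M2 than in M1, 6 in M3 and 6 in M4, and 0 were lower in any of the 3. Among all tested genes, 2.26% were called higher in M2, 8.02% in M3 and 9.48% in M4. EREG, the ligand epiregulin, was at 0.749 and 0.769 CPM for M1, 7.20 and 7.86 for M2, 47.8 and 87.6 for M3 and 79.2 and 100.1 for M4. The lines M1, M2 and the pair M3 and M4 did not overlap, and the differences from M1 were 3.31, 6.48 and 6.88 (adjusted p = 0.00605, 0.000244 and 9.62e-05, edgeR). AREG, the ligand amphiregulin, was higher in M2 by 2.68 (adjusted p = 0.0384, edgeR). With M1 replicate 2 and M2 replicate 1 exchanged, 0 tested genes were called in M2 against M1, so the M2 calls of EREG and AREG ended. IL1A was higher by 4.55 in M3 (adjusted p = 0.00711, edgeR), and IL1B by 6.63 in M4 (adjusted p = 0.000473, edgeR). EGFR, the receptor, was at 192 to 318 CPM in the 8 libraries and was not called.

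The 11 activation factors are transcription factors of the AP-1, NF-kB, STAT and NRF2 families and KEAP1, the inhibitor of NRF2. Against M1, 2.26% of all tested genes were called higher in M2, 8.02% in M3 and 9.48% in M4. Of the 11 factors, 1 was higher in M2, 1 in M3 and 2 in M4, and 0 were lower in these. FOSL1, an AP-1 subunit, was the one called in each: it was at 10.6 and 15.4 CPM in the M1 libraries, 31.0 and 31.3 in those of M2, 76.2 and 86.6 in those of M3 and 167 and 158 in those of M4, with differences from M1 of 1.26, 2.65 and 3.65 (adjusted p = 0.0130, 0.000425 and 9.62e-05, edgeR). The M2 call of FOSL1 ended with the libraries exchanged, as did every call of M2 against M1. JUN, another AP-1 subunit, was higher in M4 by 1.92 (adjusted p = 0.000844, edgeR). Of 18 basal epithelial transcription factors and other regulators, 0 were higher and 1 lower in M2. In M3 0 were higher and 5 lower, and in M4 1 was higher and 5 were lower. The shares of all tested genes called lower were 1.11% in M2, 5.51% in M3 and 11.2% in M4. TP63, the regulator of basal identity, was at 89.6 and 109 CPM in M1 against 105 and 105 in M2, with 61.4 and 80.2 in M3 and 36.2 and 39.8 in M4. TP63 was lowest in M4, as were KRT5 and KRT14, while KRT15 was lowest in M3 and KRT17 in M1. The TP63 difference of M4 from M1 was -1.38 (adjusted p = 0.00133, edgeR). A link between TP63 and these keratins was not tested.

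Over the 8 libraries, the protein-coding genes whose log2 CPM followed that of a keratin most closely were named for each, as a description over libraries that share their lines. For KRT5 they were NDUFS3, GYS1 and NDUFA1 (Pearson's r of 0.996, 0.994 and 0.992), and for KRT14 ROS1, NFASC and PGAP4 (0.995, 0.987 and 0.983). For KRT6B they included PLEK2 and KIAA1549L (0.996 and 0.993), and for KRT6A CCDC91, DCLK1 and SLC25A10 (0.980, 0.978 and 0.977). They were CHMP1B, TP53INP1 and TMEM50A for KRT15 (0.990, 0.987 and 0.978), C21orf58, AREG and KHK for KRT17 (0.971, 0.971 and 0.968), and SLC1A1, RELL1 and CEP170 for KRT6C (0.969, 0.967 and 0.962). No gene followed KRT16 with an r above 0.876 (RGS2).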

How the data were processed

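Poly A+ RNA of 4 lines with 2 replicates each was sequenced as paired ends on Illumina HiSeq. Reads were trimmed (Trimmomatic) and aligned to hg19 (GRCh37) with STAR, and the authors deposited RSEM's expected counts per gene on GENCODE 19, which are not normalized; 32.3% of the values above 0 were not whole. Whether strand was used is not given in the sources used here. RSEM divides reads that fit several near-identical genes, so counts of such genes are estimates.

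The expected counts were rounded, and columns were mapped to lines by their labels. edgeR 4.0.16 (R 4.3.3) was fitted to all 8 libraries with filterByExpr, TMM scaling, 1 mean per line and quasi-likelihood tests for 6 pairs of lines and for M3 and M4 against M1 and M2. Benjamini-Hochberg adjustment ran over all 18431 tested genes; calls needed an adjusted p under 0.05 and a log2 fold change beyond 1. Transcript lengths, coordinates and coding sequences were those of the canonical transcripts of GENCODE 44 on GRCh37, which matched 94.7% of the counted genes. On data simulated for M4 against M1 (18353 genes), 78 of 100 genes changed by 1.5 on the log2 scale were called in the right direction. Of those changed by 3, 75 of 100 were, and 2 unchanged genes were called. The simulated spread followed the level of a gene and was the same in all lines, while that of the data differed between lines. These numbers are thus not error rates of the keratin calls.

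Alternatives were other size factors, DESeq2 1.42.0, other filters, a replicate block, separate fits for each pair of lines, leaving out each library, 2 libraries exchanged, and near-identical copies summed. Where a library was left out, the lone sample of that line was assumed to vary like the others. The members and gene lists were chosen with earlier results of these data known. Named were the 8 members, from each other list the genes called with the largest differences, HRAS, and the 3 genes most like each member; EGFR, TP63, KRT4 and CD14 were added after their values were seen, and some genes that this rule names are not reported here. A permutation test planned for the summed ratios and a comparison of protein sequences were not made.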

Additional observations from a re-analysis of the deposited data

How the results depend on the processing

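Each line has 2 libraries. KRT6B with M3 and M4 together and the lower KRT14 in M4 were called under every alternative run, as was KRT5 in M4 against M2. The other calls depended on at least 1 choice, the cause of which was not tested. The exchange of M1 replicate 2 and M2 replicate 1 puts 1 library of the closely alike M2 pair in each of M1 and M2. A loss of calls between M1 and M2 under it thus does not show which labels are right. With M1 replicate 2 and M2 replicate 1 exchanged, 0 keratins were called in M2 against M1, M3 against M1 and M3 against M2. In M4 against M1 2 were called, in M4 against M3 1, and with M3 and M4 against M1 and M2 2. Calls fell over all 18431 tested genes as well. In M2 against M1, 0 genes were called higher and 0 lower, where 417 and 205 were as labelled. The exchange left 146 and 73 in M3 against M1 (as labelled 1478 and 1016) and 136 and 78 in M3 against M2 (as labelled 543 and 222). It left 739 and 820 in M4 against M1 (1748 and 2073), 286 and 544 in M4 against M3 (735 and 1162), and 894 and 863 with M3 and M4 together (1305 and 1231). KRT5, KRT14 and KRT6A in M2 against M1 were then -0.19, -0.30 and -0.66, KRT6A was -0.25 in M4 against M1 and 0.41 in M4 against M2, and KRT16 was 0.54 in M3 against M2 and 0.33 in M4 against M2. In M2 against M1, a separate fit of that pair of lines called 1. In M3 against M2, total counts called 1 and no filter called 4. In M4 against M3, DESeq2-type size factors, total counts and DESeq2 each called 1. With M3 and M4 against M1 and M2, no filter called 2. KRT16 in M3 against M2 was 0.01 with a filter of 10 counts in 4 libraries.

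When 1 library was left out, the keratins called ranged from 0 to 3 in M2 against M1, from 4 to 6 in M3 against M1, from 3 to 6 in M4 against M1, from 0 to 4 in M3 against M2, from 2 to 3 in M4 against M2, from 1 to 3 in M4 against M3 and from 1 to 4 with M3 and M4 against M1 and M2. KRT16 then ranged from -1.19 to 1.40 in M2 and in M3 against M1, from -1.84 to 1.20 in M4 against M1, from -0.57 to 0.40 in M3 against M2, from -1.43 to 0.46 in M4 against M2 and against M3, and from -0.92 to 0.60 with M3 and M4 together. KRT5 in M3 against M1 ranged from -0.44 to 0.00, and KRT6A in M4 against M1 from -0.03 to 2.66. Without M2 replicate 1 or without M2 replicate 2, calls in M2 against M1 and in M3 against M2 were few over all tested genes, not only among the keratins.

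Same-numbered replicates deviated from their line means with correlations of -0.0244 to 0.122, the largest for M3 with M4. With 2 libraries per line this cannot exclude that the numbers pair some samples. With a replicate block, the keratins called numbered 1 in M3 against M2 and 2 with M3 and M4 together, and KRT16 was 0.06 in M3 against M1 and 0.13 in M3 against M2. Of the other values of single genes under the alternatives, 789 kept their direction and their side of the threshold, 61 kept their direction and lost the call, and 34 gained one. With near-identical copies summed, 8 separate keratins no longer exist, so no count of called keratins is given for it.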

Other observations

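The proteins that anchor keratin filaments to desmosomes and hemidesmosomes were measured beside the keratins. Of 9 tested genes of that list, 0 were higher and 0 lower in M2 than in M1, 0 higher and 1 lower in M3, and 1 higher and 1 lower in M4. PLEC, which encodes the linker plectin, was at 388 and 303 CPM in M1 and 1224 and 1244 in M4, higher by 1.84 (adjusted p = 0.00510, edgeR). DSP, which encodes the desmosomal linker desmoplakin, was at 1910 and 1066 CPM in M1 and 729 and 645 in M3, lower by -1.12 (adjusted p = 0.0260, edgeR). PKP1 was lower in M4 by -2.35 (adjusted p = 0.0198, edgeR) at levels of 0.141 to 1.52 CPM.

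Markers of other mammary cell states were called less uniformly. Beside them, 2.26% of all tested genes were higher and 1.11% lower in M2 than in M1, 8.02% and 5.51% in M3, and 9.48% and 11.2% in M4. Of 5 tested luminal markers, 0 were higher and 0 lower in M2 than in M1, and 0 higher and 1 lower in M3 (GATA3). GATA3, a luminal transcription factor, was at 74.7 and 98.4 CPM in M1 and 14.7 and 16.5 in M4. Of 5 tested contractile myoepithelial markers, 0 were called in M2, 1 was higher in M3 (MYLK) and 1 in M4 (OXTR), and 0 were lower. Of 7 tested mesenchymal markers, 0 were called in M2 and M3, and 1 was lower in M4 (ZEB2). VIM, which encodes the mesenchymal filament protein vimentin, was at 55.5 CPM in M1 replicate 1 and 408 in M1 replicate 2, and at 451 to 1899 in the M2, M3 and M4 libraries.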
